A study of Mus musculus with 4 samples.

Results

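Motile cilia genes were examined in bronchial epithelial cells from a mouse model of allergic asthma. They were 39 genes known from multiciliated cells: regulators of the ciliated cell programme, subunits of the dynein arms, ruler proteins, parts of the radial spokes and the central pair, tektins and other genes of ciliated cells. They were found by gene name among the array probes, with 61 probes in all, out of 28662 genes and 39429 probes. Newer or related names were accepted for 3 of them (Dnai1 for Dnaic1, Dnai2 for Dnaic2, Spag6l for Spag6). A gene was read from its brightest probe; 23 members had 1 probe and 16 had several. Of the 39 members, 38 were well above background on all 4 arrays, as were 22234 of all genes. The exception was Dnah3, an inner arm dynein heavy chain, which was not well above background on any array and has no value below.

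The study asked how loss of Pla2g3, the gene of the secreted group III phospholipase A2, bears on gene expression in this model. Mice received ovalbumin (OVA, 10 µg) with 1.3 mg of alum into the peritoneum on days 0 and 14, then breathed an aerosol of 1% OVA on days 26, 27 and 28, each time for 30 min. Cells were isolated from lungs harvested 3 h after the last exposure. The 4 groups were challenged mice labelled Pla2g3-/-, challenged wild-type (Pla2g3+/+) mice, control mice labelled Pla2g3-/- and control wild-type mice. The treatment of the control mice, the making of the Pla2g3 allele, and the age and strain of the mice are not given in the sources used here. A challenge difference can therefore include sensitisation. Each group was 1 array with RNA pooled from 4 samples. No difference between arrays has a replicate check, and the only test is a fit over all 4 arrays.

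A motile cilium is built on an axoneme, a ring of microtubule doublets around a central pair, and beats because dynein arms on the doublets walk along their neighbours. In the airway, multiciliated cells carry many such cilia and move mucus out of the lung. Geminin family factors such as Mcidas start the programme, centrioles are amplified in the cytoplasm, and Foxj1 and the Rfx factors then switch on the genes of the axoneme. In RNA from bulk cells, fewer ciliated cells and less cilia RNA per cell cannot be told apart.

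The labels and the cell mixture were checked first, because both touch the values below. Pla2g3 ran against its label: its brighter probe read 4154 intensity units on the challenged array labelled Pla2g3-/- and 254 on the challenged wild-type array, and 2023 on the control array labelled Pla2g3-/- and 239 on the wild-type control array. It was thus higher by 3.90 with challenge and by 3.19 without on the log2 scale, and the dimmer probe was higher in the same direction. The position of the probes relative to the deleted part is not known here, and the groups are called by their labels throughout. All 12 pan epithelial markers were well above background on every array, with a median log2 level between 2.87 and 3.14. All 16 markers of T cells and thymocytes were well above background as well, and their summed intensity was 14889 on the challenged array labelled Pla2g3-/-, 9233 on the challenged wild-type array, 95086 on the control array labelled Pla2g3-/- and 13073 on the wild-type control array.

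Most members differed little between the arrays, as did most of all genes. A level here is the log2 signal minus the 75th percentile of the same array, so that 0 is the level of that percentile, and every level and difference below is on this log2 scale. Over the 38 measured members, the distance between the highest and the lowest array had a median of 0.40, against 0.38 over all genes. It was under 0.5 for 27 members (71.1%), against 63.8% of all genes. It reached 1 for 2 members (5.26%), Mcidas and Dnah9, against 11.7% of all genes. At its brightest probe, no member was 2-fold different in any of the 4 single differences. The shares of all genes at least 2-fold higher and lower were 3.87% and 3.41% with challenge in cells labelled Pla2g3-/-, and 1.81% and 1.67% with challenge in wild-type cells. For genotype they were 3.84% and 2.48% in challenged cells, and 3.19% and 1.8% in control cells.

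**Figure D1:**
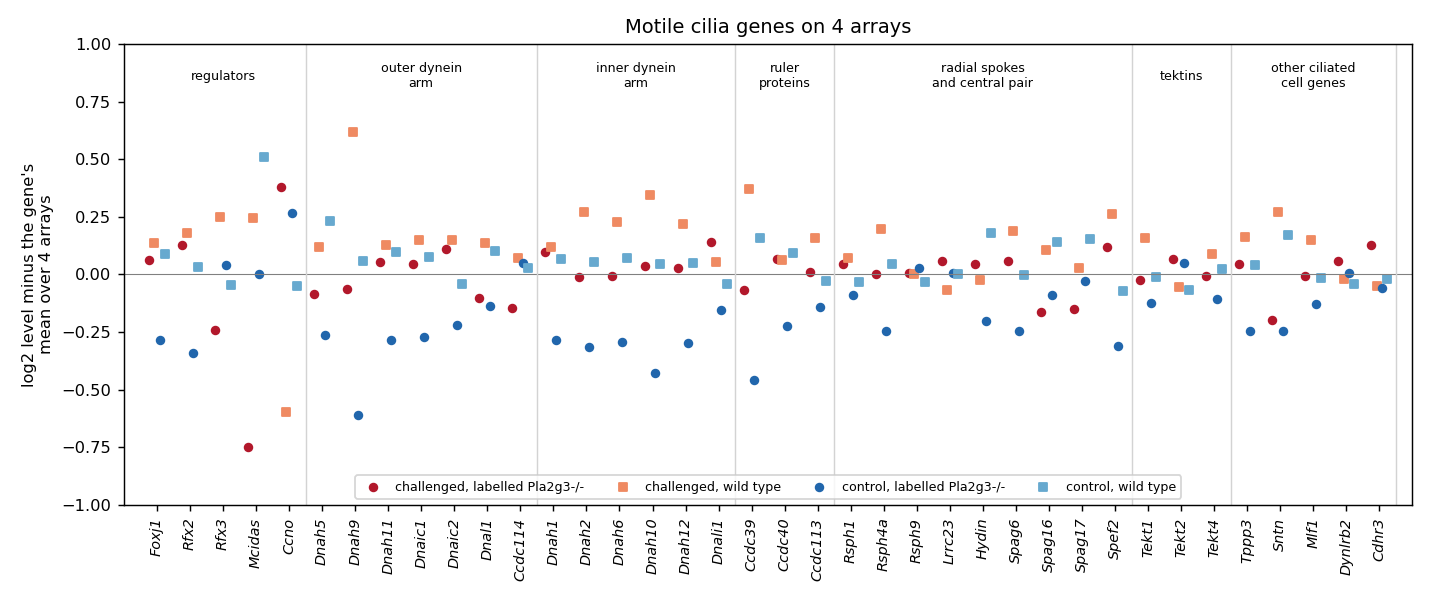
Each of the 38 measured motile cilia genes on the 4 arrays, as its log2 level minus that gene's own mean over the arrays, grouped by role; each point is 1 array and there are no error bars because each group has 1 array. The control array labelled Pla2g3-/- was the lowest for 28 of 38 genes and the challenged wild-type array the highest for 25, while Mcidas and Ccno take other orders.

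Within that range most members had the same lowest and highest array. The control array labelled Pla2g3-/- had the lowest level of the 4 for 28 of 38 members, where it had the lowest for 24.6% of all genes. The challenged wild-type array had the highest level for 25 of 38 members, where it had the highest for 21.4% of all genes. The members' summed intensity was 451430 and 430330 on the challenged arrays labelled Pla2g3-/- and wild type. It was 380590 and 451920 on the control arrays labelled Pla2g3-/- and wild type. Unlike the levels, these sums and those of the T cell and thymocyte markers are not scaled to the array. The 75th percentile of the array was 1979, 1808, 1834 and 1986 in the same order. The control array labelled Pla2g3-/- is also the one with the high T cell and thymocyte signal; the part of that RNA in the members' low values was not tested.

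Challenge in cells labelled Pla2g3-/- gave the members a median log2 difference of 0.21, with 32 above 0 and 6 below, where the median of all genes was -0.06 with 42.2% above 0. That direction held for scaling on the array percentile, the probes' median or the mean of 12 pan epithelial markers. It did not hold when arrays were scaled on the median of those markers (-0.017). With the wild-type control array in place of the control array labelled Pla2g3-/- the median was -0.024. Those arrays differ in genotype label as well as challenge, so that value cannot check the challenge direction. Challenge in wild-type cells gave a median of 0.08, with 29 members above 0 and 9 below, against a median of -0.03 and 45.7% above 0 over all genes, and this too turned with the pan epithelial median scaling (-0.10). The challenge difference in cells labelled Pla2g3-/- minus that in wild-type cells had a median of 0.10 over the members.

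For genotype, the cells labelled Pla2g3-/- were lower for most members. Without challenge the median difference was -0.24, with 7 members above 0 and 31 below, against -0.03 and 46.2% above 0 over all genes. With challenge the median was -0.14, with 9 members above 0 and 29 below, against -0.05 and 39.8% above 0 over all genes. Both medians stayed below 0 under each setting tried, at -0.30 to -0.15 without challenge and -0.14 to -0.07 with challenge. The pairs of differences share arrays: the control array labelled Pla2g3-/- enters the first challenge difference and the genotype difference without challenge, so a low value on it makes the challenge difference more positive and the genotype difference more negative.

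**Figure D2:**
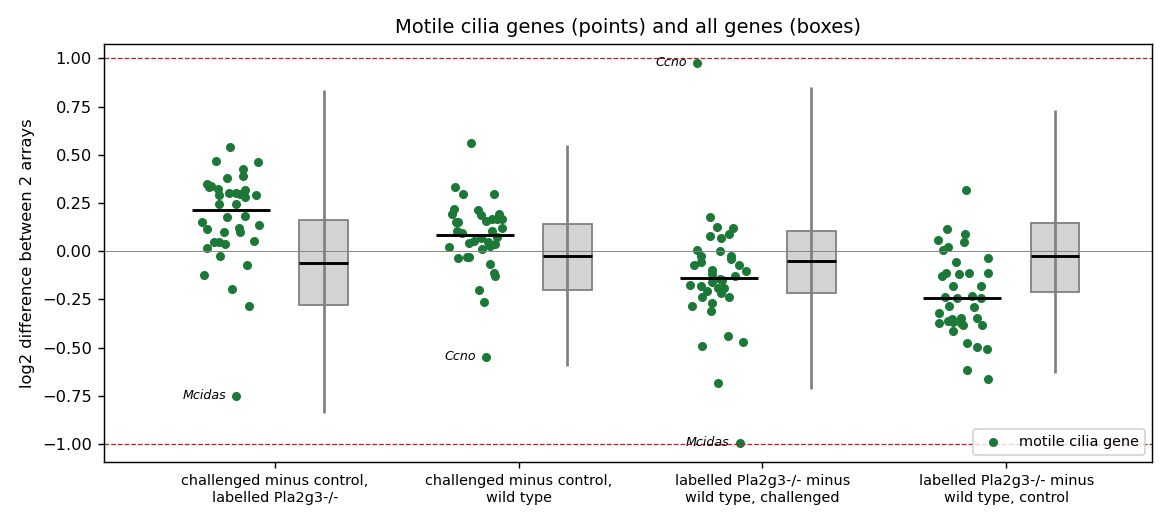
The 4 single differences of log2 level between arrays for the 38 measured motile cilia genes (green points, black line at their median), beside all genes (box from the 25th to the 75th percentile, black line at the median, grey line from the 5th to the 95th percentile); dashed red lines mark 2-fold. No point lies past the 2-fold lines, Ccno at 0.98 and Mcidas at -0.99 come closest to them, and the challenge medians of 0.21 and 0.08 turn below 0 when arrays are scaled on the median of pan epithelial markers.

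At a lower limit of 1.5-fold, few members were past it. Mcidas was the member lower with challenge in cells labelled Pla2g3-/-, where 9.95% of all genes were that much lower, and no member was higher, against 7.72% of all genes. For genotype with challenge, Mcidas and Dnah9 were lower, against 7.14% of all genes, and Ccno was higher, against 7.83%. For genotype without challenge, Dnah9 and Ccdc39 were lower, against 5.8% of all genes, and none was higher, against 6.62%. No member passed it for challenge in wild-type cells, where 4.59% of all genes were higher and 5.25% lower.

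No member passed the test over the 4 arrays. In limma's additive fit of genotype and challenge, 0 of 38 members had an adjusted p under 0.05 for challenge, where 0.00407% of 24549 genes did, and 0 of 38 for genotype, where 0% did. At an unadjusted p under 0.05, 6 members passed for challenge (5 higher and 1 lower), where 14.2% of all genes did, and 9 for genotype (1 higher and 8 lower), where 11.4% did. The lowest adjusted p among members in limma's fit belonged to Dnah9 for each term, at 0.248 for challenge and 0.221 for genotype. This fit has 1 residual degree of freedom and counts any difference between the challenge responses of the genotypes as error.

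The regulators Mcidas and Ccno came closest to a 2-fold difference, and they did so in opposite directions. Each was read from 1 probe, and the Mcidas probe begins with a run of repeated AC letters. Whether that probe also reads other RNA was not tested. Mcidas (multicilin), the geminin family coregulator that starts multiciliated cell formation, had an intensity of 7345 on the challenged array labelled Pla2g3-/-, 13359 on the challenged wild-type array, 11454 on the control array labelled Pla2g3-/- and 17632 on the wild-type control array. Its log2 levels were 1.89, 2.89, 2.64 and 3.15 on the same arrays. It was lowest on the challenged array labelled Pla2g3-/-, with the wild-type arrays the higher ones within each condition. The genotype difference was -0.99 with challenge and -0.51 without, and challenge gave -0.75 in cells labelled Pla2g3-/- and -0.26 in wild-type cells. In limma's additive fit its genotype term was -0.75 ± 0.15 (SE) with an adjusted p of 0.261.

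Ccno, the cyclin O gene, acts after Mcidas in the amplification of centrioles. Its intensity was 8367 on the challenged array labelled Pla2g3-/-, 3885 on the challenged wild-type array, 7169 on the control array labelled Pla2g3-/- and 6236 on the wild-type control array. The corresponding log2 levels were 2.08, 1.10, 1.97 and 1.65. The challenged wild-type array was the low one, and the other 3 arrays were closer together. The genotype difference was 0.98 with challenge and 0.32 without, and challenge gave 0.11 in cells labelled Pla2g3-/- and -0.55 in wild-type cells. limma's additive fit gave a genotype term of 0.65 ± 0.19 (SE) with an adjusted p of 0.355. Over all settings tried, the genotype difference with challenge ran from -0.998 to -0.92 for Mcidas and from 0.93 to 1.05 for Ccno, which reached 2-fold under 3 of them. The scanner's own error of each such difference was 0.20.

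Foxj1, the forkhead factor that switches on motile axoneme genes, had log2 levels of 3.47 on the challenged array labelled Pla2g3-/-, 3.55 on the challenged wild-type array, 3.12 on the control array labelled Pla2g3-/- and 3.50 on the wild-type control array. As in most members, the control array labelled Pla2g3-/- was the lowest, and the other 3 arrays were close together. Its differences were 0.35 and 0.05 with challenge in cells labelled Pla2g3-/- and wild-type cells, and -0.07 and -0.37 for genotype with and without challenge. Rfx2, a regulatory factor X protein that binds X-box sites in cilia genes, had levels of -3.07, -3.01, -3.54 and -3.16 on the 4 arrays in the order used for Foxj1, with the same array lowest. Rfx3, a related factor, had levels of -4.00, -3.51, -3.72 and -3.80 at its brightest probe. There the challenged array labelled Pla2g3-/- was the lowest, while on another probe of Rfx3 (-4.22, -4.28, -4.76 and -4.52) it was the highest, so the probes of Rfx3 gave different orders.

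**Figure D3:**
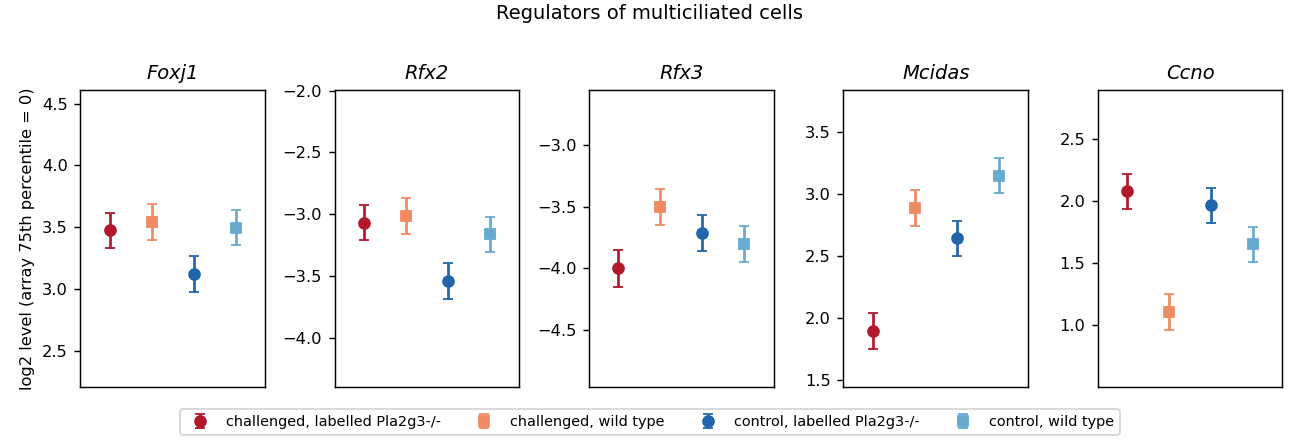
Log2 level of the 5 regulators on the 4 arrays, each panel spanning the same number of log2 units; points are single arrays and bars are the scanner's own error of 1 array, not a spread between replicates. Mcidas is lowest on the challenged array labelled Pla2g3-/- (1.89) and Ccno is lowest on the challenged wild-type array (1.10).

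Ccno and Mcidas lie next to each other on chromosome 13, with 0 genes between them in the RefSeq annotation. The Ccno probe lies at chr13:113780810-113780869 and the Mcidas probe at chr13:113790543-113790602, both on the + strand of mm9. The protein-coding genes around them run in the order Plpp1, Mtrex, Dhx29, Ccno, Mcidas, Cdc20b, Gpx8 and Gzma. Their genotype differences with challenge were 0.01 for Plpp1, 0.02 for Mtrex, -0.17 for Gpx8 and -0.23 for Gzma. Dhx29 had a log2 level of -0.82 on each challenged array. Cdc20b, a gene of the same locus that takes part in centriole amplification in multiciliated cells, was higher by 0.76 at its brighter probe, as Ccno was. Its dimmer probe was not well above background on the challenged wild-type array. Gzma, a granzyme gene of cytotoxic lymphocytes, was instead higher by 1.28 for genotype without challenge.

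**Figure D4:**
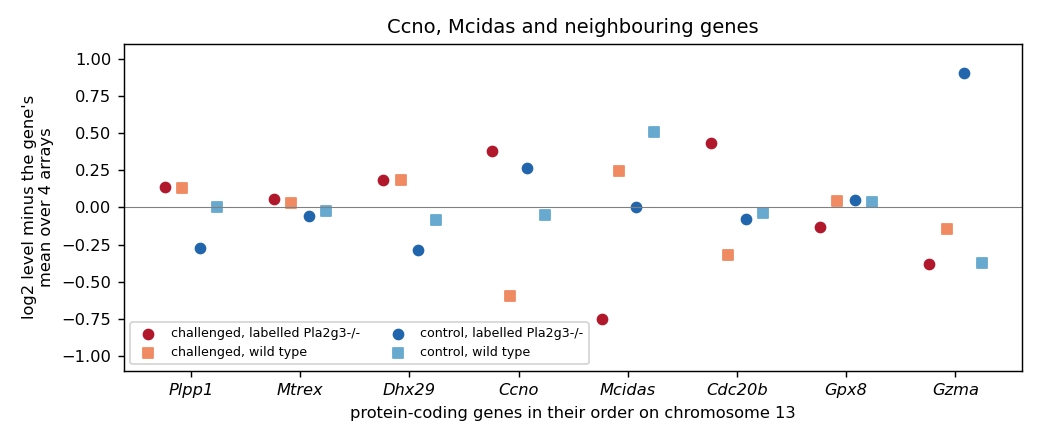
Log2 level of Ccno, Mcidas and 6 neighbouring protein-coding genes on the 4 arrays, each minus the gene's own mean, in their order on chromosome 13 (spacing not to scale); each point is 1 array. Ccno and Cdc20b are low on the challenged wild-type array, Mcidas is low on the challenged array labelled Pla2g3-/-, and Plpp1, Mtrex and Dhx29 have nearly equal levels on the challenged arrays.

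Promoters of the members were searched for the binding motif of the Rfx factors, because Rfx2 and Rfx3 are among the members. RefSeq promoters (GRCm38.p6, from 250 bases before to 50 after the start site) were found for 34 of 39 members, 37 promoters in all. The X-box half-site GTTGCC, on either strand, was in 20 of 37 promoters (54.1%) of 19 genes, against 12.5% of all 32851 promoters. The forkhead motif TGTTTAC, on either strand, was in 2 of 37 (5.41%), those of Mlf1 and Sntn, against 3.65%. A match describes the letters only and is not evidence of a bound site. Lrrc23, Spag16, Tekt1 and Tekt2 were among the members with the half-site on both strands. Stretches upstream of the start site are shown for Spag16 and Tekt1 of these, for the neighbours Ccno and Mcidas, for Rfx2, and for Dynlrb2, which was nearly level on all arrays. They are read along the gene's strand with the half-site, GTTGCC or its reverse complement GGCAAC, in capitals:
Ccno, chr13:112987561-112987610, + strand: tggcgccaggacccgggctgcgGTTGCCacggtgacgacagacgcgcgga
Mcidas, chr13:112993651-112993700, + strand: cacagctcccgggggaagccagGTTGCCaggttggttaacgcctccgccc
Rfx2, chr17:56831097-56831146, - strand: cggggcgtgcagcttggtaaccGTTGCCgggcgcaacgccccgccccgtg
Dynlrb2, chr8:116504942-116504991, + strand: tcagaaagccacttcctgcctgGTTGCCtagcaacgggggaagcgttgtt
Spag16, chr1:69826837-69826886, + strand: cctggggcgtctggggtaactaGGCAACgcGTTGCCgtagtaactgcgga
Tekt1, chr11:72361890-72361939, - strand: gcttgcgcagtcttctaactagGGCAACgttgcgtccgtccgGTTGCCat
The Ccno and Mcidas promoters thus both hold the half-site, at positions -219 and -195 from their start sites. In Ccno the half-site begins a full X-box, while the Mcidas promoter holds no full X-box. The part of either motif in the levels of these genes was not tested.

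The outer dynein arm, which sets beat frequency, was represented by 7 genes. Their median difference was 0.32 with challenge in cells labelled Pla2g3-/- and 0.04 in wild-type cells, and -0.20 and -0.35 for genotype with and without challenge. Dnah9, a heavy chain of the outer arm, had the widest range of the 7 and was singled out after its values were seen, as was Ccdc39 below. Its levels were -0.51 on the challenged array labelled Pla2g3-/-, 0.17 on the challenged wild-type array, -1.05 on the control array labelled Pla2g3-/- and -0.39 on the wild-type control array. Challenge gave 0.54 and 0.56 in cells labelled Pla2g3-/- and wild-type cells, and genotype gave -0.68 with and -0.67 without challenge, so that each difference was nearly equal on the other background. Its second, dim probe gave a genotype difference of -0.67 without challenge but -0.14 with challenge, and a challenge difference of 0.43 in cells labelled Pla2g3-/- but -0.09 in wild-type cells. The heavy chains Dnah5 and Dnah11 and the intermediate chains Dnaic1 and Dnaic2 differed by -0.20 to -0.04 for genotype with challenge and by -0.50 to -0.18 without. The light chain Dnal1 differed by -0.24 in each. Ccdc114, a part of the complex that docks the outer arm, differed by -0.22 with challenge and 0.02 without at its brightest probe. Its dimmer probes differed by -0.30 and -0.19 with challenge, and by -0.61 and -0.10 without.

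The inner dynein arm, which shapes the bend of the cilium, had 6 measured genes: the heavy chains Dnah1, Dnah2, Dnah6, Dnah10 and Dnah12 and the light intermediate chain Dnali1. At their brightest probes, all 6 were above 0 for both challenge differences and below 0 for genotype without challenge. The medians were 0.31 in cells labelled Pla2g3-/-, 0.16 in wild-type cells and -0.36 for genotype without challenge. With challenge, 5 of 6 were below 0 for genotype, and Dnali1 was 0.09. Among the brightest probes, that of Dnah10 had the largest inner arm difference for genotype, -0.47 without challenge and -0.31 with it. Both dim probes of Dnah10 had the same direction, at -0.63 and -0.98 without challenge and -0.67 and -0.94 with challenge. The dimmer probe of Dnah12 gave -0.13 for challenge in cells labelled Pla2g3-/- and 0.24 in wild-type cells. For genotype that probe gave -0.30 without challenge and -0.67 with it, where the brightest probe of Dnah12 gave -0.35 and -0.19.

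The ruler proteins Ccdc39 and Ccdc40 set the spacing of the inner arms and radial spokes along the doublet, and Ccdc113, a coiled-coil protein of the axoneme, was grouped with them. Their medians were 0.29 and 0.19 for challenge in cells with the Pla2g3-/- label and in wild-type cells, and -0.15 and -0.32 for genotype with and without challenge. Ccdc39 had levels of -0.33 on the challenged array labelled Pla2g3-/-, 0.10 on the challenged wild-type array, -0.72 on the control array labelled Pla2g3-/- and -0.11 on the wild-type control array. Its genotype difference was -0.61 without challenge and -0.44 with it. Ccdc40, its partner, differed by -0.32 without challenge and 0.00 with it at its brighter probe. At its dimmer probe Ccdc40 differed by -0.42 without challenge and -0.19 with it.

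Radial spoke and central pair genes, which carry signals from the centre of the axoneme to the dynein arms, varied less. The 9 genes had median differences of 0.13 and 0.03 for challenge in cells with the Pla2g3-/- label and in wild-type cells, and of -0.13 and -0.23 for genotype with and without challenge. The spoke genes Rsph1, Rsph9 and Lrrc23 were nearly level. Rsph9 had levels of 3.65, 3.65, 3.67 and 3.61 on the challenged array labelled Pla2g3-/-, the challenged wild-type array, the control array labelled Pla2g3-/- and the wild-type control array. On the same arrays Rsph1 had 3.67, 3.69, 3.53 and 3.59, and Lrrc23 had 3.66, 3.53, 3.60 and 3.60. Rsph4a, a spoke head gene, differed by -0.19 and -0.29 for genotype with and without challenge. Hydin, a central pair protein, differed by 0.07 and -0.38 at its brighter probe, and by -0.11 and -0.43 at its dimmer probe. Spef2, another central pair protein, had the largest challenge differences of the group at the brightest probes, 0.43 in cells labelled Pla2g3-/- and 0.33 in wild-type cells. Its dimmer probe showed almost no challenge difference, at -0.027 and -0.002.

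For the central pair genes Spag6, Spag16 and Spag17, the probes of each gene gave different values, and the levels of Spag6 and of the dim Spag17 probe are given after their values were seen. Spag17 differed by -0.18 for genotype both with and without challenge at its brighter probe, and by -1.46 and -1.65 at its dim probe, which lies at chr3:99947185-99947244 of mm9. The dim probe's levels were -6.70 on the challenged array labelled Pla2g3-/-, -5.23 on the challenged wild-type array, -7.15 on the control array labelled Pla2g3-/- and -5.50 on the wild-type control array, so the wild-type arrays were the higher ones in each condition. The probe taken for Spag6 lies on chromosome 16 and carries the accession of the RefSeq gene Spag6l, with levels of 1.99, 2.12, 1.68 and 1.93 on the same 4 arrays. The 3 probes that the files name Spag6l lie on chromosome 2, and 2 of them carry the accession of RefSeq Spag6. Of these, 1 was not well above background on the challenged arrays but had levels of -5.26 and -4.61 on the control arrays labelled Pla2g3-/- and wild type, so that challenge gave at least 4.63-fold and at least 9.31-fold lower values. The other was not above background on any array. The remaining chromosome 2 probe was level at -6.32, -6.25, -6.09 and -6.10 on the 4 arrays. Spag6 and Spag6l are closely related copies, and how far their probes share RNA was not tested. Spag16 differed by -0.27 and -0.23 for genotype with and without challenge at its brightest probe. Its other probes differed by 0.13 and -0.43 for genotype with challenge.

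Over the 15 members with several probes above background, all measured probes had the same sign in 8 and 7 genes for challenge in cells with the Pla2g3-/- label and in wild-type cells, and in 9 and 10 genes for genotype with and without challenge. The median gap between the probes of a gene was 0.13 to 0.32 over the 4 differences, where the members' own medians ran from -0.24 to 0.21. Spots of 1 probe repeated on an array gave a median SD of 0.09 for a difference.

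The tektins Tekt1, Tekt2 and Tekt4, filament proteins inside the doublets, had medians of 0.10 and 0.07 for challenge in cells with the Pla2g3-/- label and in wild-type cells, and of -0.10 and -0.11 for genotype with and without challenge. Among the other genes of ciliated cells, Dynlrb2, a dynein light chain, had levels of 5.62 on the challenged array labelled Pla2g3-/-, 5.55 on the challenged wild-type array, 5.57 on the control array labelled Pla2g3-/- and 5.52 on the wild-type control array. Tppp3, a tubulin-binding protein used as a ciliated cell marker, had 4.07, 4.19, 3.78 and 4.06 on those arrays, with the control array labelled Pla2g3-/- lowest. Sntn, the sentan gene of the ciliary tip, differed by -0.47 and -0.41 for genotype with and without challenge. Mlf1, a ciliated cell gene, differed by -0.16 and -0.11. Cdhr3, a cadherin-related protein of ciliated cells and in humans a receptor of rhinovirus C, differed by 0.17 and -0.04 at its brighter probe. At its dimmer probe it differed by -0.36 and -0.34.

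Further genes of the cilia programme were taken from 5 lists, with 136 genes measured in every difference. Their medians were 0.16 and 0.09 for challenge in cells with the Pla2g3-/- label and in wild-type cells. Above 0 were 105 (77.2%) and 92 (67.6%), against 42.2% and 45.7% of all genes. For genotype with challenge the median was -0.02 with 57 (41.9%) above 0, against -0.05 and 39.8% over all genes. Without challenge it was -0.10 with 43 (31.6%) above 0, against -0.03 and 46.2% over all genes. For challenge in cells labelled Pla2g3-/-, 1 gene was 2-fold higher and 0 lower, and in wild-type cells 0 were 2-fold different. For genotype with challenge 3 were 2-fold higher and 1 lower, and without challenge 0 were higher and 1 lower. The share of all genes past 2-fold is given above for each difference.

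Tmem212, a membrane protein gene of ciliated cells, was the gene past 2-fold lower for genotype in both conditions. Its levels were 2.60 on the challenged array labelled Pla2g3-/-, 4.18 on the challenged wild-type array, 2.99 on the control array labelled Pla2g3-/- and 4.01 on the wild-type control array, which gave -1.58 with and -1.02 without challenge. The wild-type arrays were the higher ones in each condition. Dnaaf6, a dynein arm assembly factor, was higher on the challenged array labelled Pla2g3-/- (-3.23) than on the challenged wild-type array (-4.41), the control array labelled Pla2g3-/- (-4.66) and the wild-type control array (-4.31), which gave 1.43 for challenge and 1.18 for genotype. Cfap53, a cilia and flagella protein, was higher with challenge by 0.93 in cells labelled Pla2g3-/- and by 0.56 in wild-type cells. Cfap69, a central pair protein, was higher with challenge by 0.58 and 0.38.

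On the lower side of challenge in cells labelled Pla2g3-/- stood the dynein heavy chains Dnah17 (-0.67) and Dnah8 (-0.65) and the transcription factor Myb (-0.64), which acts early in multiciliated cells. In wild-type cells Dnah17 was -0.48. For genotype with challenge, Iqcg, a nexin-dynein link gene, was -0.62 and Cfap100 was -0.47. For genotype without challenge, Cfap65 was -0.64 and Morn3 -0.58, while Tekt5 was 0.70 and Myb 0.69. Myb is also expressed by thymocytes, and the T cell and thymocyte markers had a median genotype difference of 3.70 without challenge; their part in the value of Myb was not tested.

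Several further regulators of centriole amplification were, like Ccno, lowest on the challenged wild-type array. Foxn4, a forkhead factor of multiciliated cells, had levels of 0.07 on the challenged array labelled Pla2g3-/-, -1.22 on the challenged wild-type array, -0.08 on the control array labelled Pla2g3-/- and -0.53 on the wild-type control array. Its genotype difference was 1.29 with challenge, and challenge gave -0.69 in wild-type cells. Plk4, the kinase that starts centriole formation, was higher for genotype by 1.09 with and 0.79 without challenge, and challenge gave -0.56 in wild-type cells. By contrast, Gmnc, the geminin relative that acts before Mcidas, was higher with challenge by 0.36 in cells labelled Pla2g3-/- and by 0.37 in wild-type cells.

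The genes Deup1, Stil and Cdc20b were chosen after their values were seen. Deup1, the scaffold of the deuterosome on which centrioles form, was higher for genotype with challenge by 0.69, 0.84 and 0.73 at its 3 probes, and challenge in wild-type cells gave -0.38, -0.46 and -0.41. Stil, a centriole assembly gene, was higher for genotype by 0.61 with challenge and 0.53 without. Over the whole list of 20 other regulators, 10 were above 0 and 10 below for genotype with challenge, with a median of -0.01, so these genes do not describe the list. Plk4 and Stil are also used by dividing cells, and T cell and thymocyte markers were lowest in summed intensity on the challenged wild-type array too; their part in these values was not tested.

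**Figure D5:**
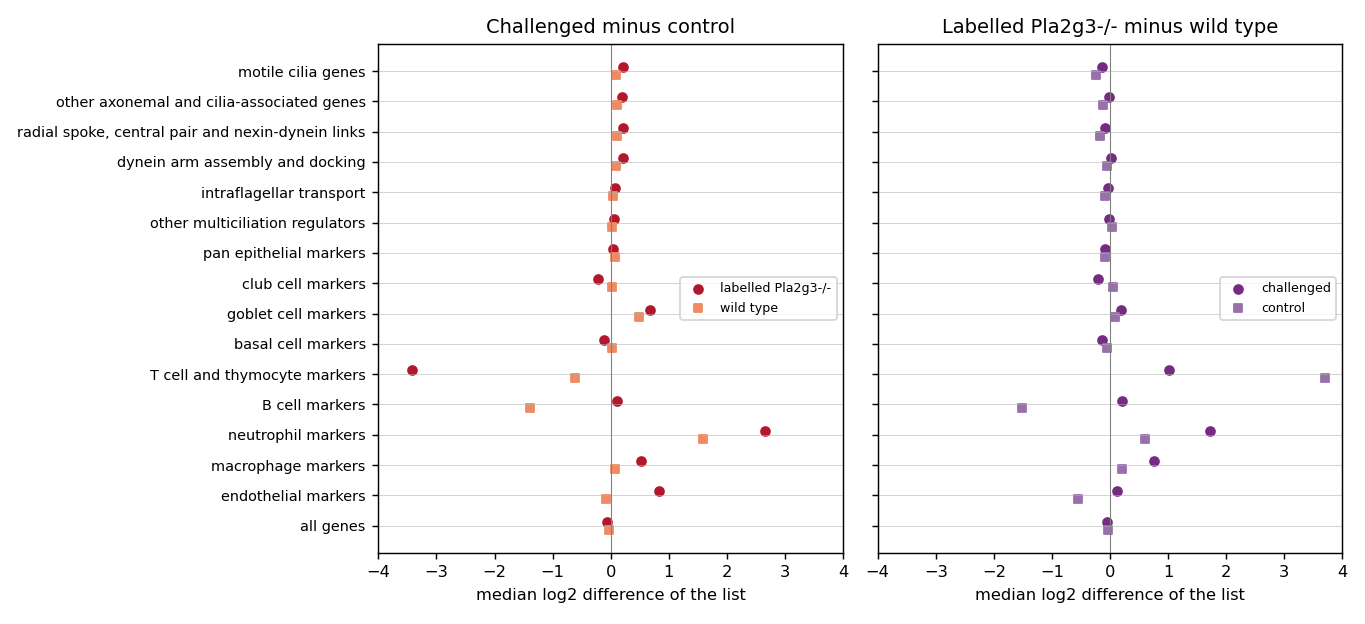
Median log2 difference of the motile cilia genes, 5 further lists of cilia genes, 9 marker lists of cell types and all genes, for challenge (left, by genotype label) and for genotype (right, by condition); points are medians over the genes of a list and have no error bars. The medians of the motile cilia genes lie between -0.24 and 0.21, while T cell and thymocyte markers reach -3.41 and 3.70; the challenge medians of the motile cilia genes turn below 0 when arrays are scaled on the median of pan epithelial markers.

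Markers of other epithelial cells stood beside the cilia genes as follows. Club cell markers had medians of -0.22 and 0.03 for challenge in cells with the Pla2g3-/- label and in wild-type cells, and of -0.20 and 0.05 for genotype with and without challenge. Goblet cell markers were above 0 for all 10 genes with challenge, with medians of 0.67 and 0.48. Basal cell markers had medians of -0.11 and 0.02 for challenge, and of -0.14 and -0.06 for genotype with and without challenge. Pan epithelial markers had medians of 0.04 and 0.07 for challenge, and of -0.08 and -0.09 for genotype with and without challenge, with 10 of 12 and 11 of 12 genes below 0. The lower genotype medians of the motile cilia genes thus came with slightly lower pan epithelial markers, and scaling on the mean of these markers left -0.07 with and -0.16 without challenge.

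Marker lists of other cells had medians further from 0 than the cilia genes in most cases. T cell and thymocyte markers had medians of -3.41 and -0.62 for challenge in cells with the Pla2g3-/- label and in wild-type cells, and of 1.01 and 3.70 for genotype with and without challenge. Neutrophil markers had 2.65 and 1.58 for challenge and 1.71 and 0.60 for genotype, in the same order. B cell markers had 0.11 and -1.40 for challenge and 0.20 and -1.51 for genotype. Macrophage markers had 0.52 and 0.08 for challenge and 0.75 and 0.21 for genotype. Endothelial markers had 0.82 and -0.07 for challenge and 0.11 and -0.56 for genotype. Fibroblast, smooth muscle and alveolar markers had medians between -0.35 and 0.38 in every difference. The part of these cells' RNA in the members' differences was not tested.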

How the data were processed

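Bronchial epithelial cells were profiled on 4 single-colour Agilent arrays of 1 slide, 1 for each group, so slide position and group cannot be told apart. Each array took 200 ng of RNA pooled from 4 samples, per the labels. The deposited scanner output gives an intensity for each spot. Per the file headers, the signal was background-subtracted and detrended and the probes were placed on mm9; the submitters' processing notes name Agilent Feature Extraction 11.5.1.1. The deposited series matrix also holds intensity values: each column was the processed signal over the 75th percentile of its array for 44397 features (spread of the log2 ratio at most 1.59e-06), with column medians of 0.0850, 0.0860, 0.0879 and 0.0875.

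From 43020 spots that were not controls, 128 to 155 outlier spots an array were left out and 0 were saturated. The 75th percentile of the processed signal was 1808 to 1986, and 78.7% to 81.5% of probes were well above background. Levels are log2 of the processed signal minus that percentile. Spots of a probe were averaged, and 28330 of 39429 probes took a RefSeq (GRCm38.p6) symbol by accession, with 11099 keeping the name in the file. Where a gene was dim on 1 of the arrays compared, its difference is a bound: the brighter level was set against the dim probe's own level or the array's lowest level above background, whichever was higher. The number of arrays, 1 a group, limits the precision. The 4 differences carry no p-value. The only test was limma 3.58.1 (R 4.3.3) with genotype and challenge as additive terms, a variance trend and Benjamini-Hochberg adjustment over all genes. It was run on simulated data with changes in the challenge term only, larger than any member's difference at its brightest probe. That run cannot show whether differences of the members' size, or genotype differences, would be found.

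Values on all 4 arrays were given for the 5 regulators, the 5 brightest other members and any member 2-fold different; of further cilia lists, the 3 highest and 3 lowest of each difference were named, and other members are given by differences. Outside this rule, the levels of Dnah9, Ccdc39, Spag6 and the dim Spag17 probe, and the genes Deup1, Stil and Cdc20b, were chosen after their values were seen. The members, marker lists and further lists were chosen with earlier results of these data known. Alternatives were normexp (offset 50), quantile normalization, other scalings, the mean of a gene's probes, no bounds, outlier spots kept, the series matrix, a 1.5-fold limit and no variance trend.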

Additional observations from a re-analysis of the deposited data

How the results depend on the processing

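Of the values recomputed under other settings, 142 stayed within the range set for them and 13 moved. That range was 0.093 for a median, the SD of a difference between repeated spots, and 1.5 times for a count. A median that stayed within it could still shrink: with scaling on the pan epithelial mean, the median was 0.015 for challenge in wild-type cells, against 0.08, and -0.068 for genotype with challenge, against -0.14. Ccno came to 1.00 for genotype with challenge, so 1 member was 2-fold higher, with scaling on the median of probes above background, and 1 likewise with scaling on the median (1.02) or the mean (1.05) of pan epithelial markers. When a gene's probes were averaged, 1 member (Spag6, -1.49) was 2-fold lower with challenge in wild-type cells and 1 (Dnah6, -1.10) for genotype without challenge, both through dim probes. At 1.5-fold, 1 member was lower with challenge in cells labelled Pla2g3-/-, 1 higher and 2 lower for genotype with challenge, and 2 lower for genotype without challenge. With the wild-type control array in place of the control array labelled Pla2g3-/-, the median for challenge in cells labelled Pla2g3-/- was -0.024 and 1 member was 2-fold lower. This swap adds the genotype difference to the challenge difference and so is no check of the challenge direction. With scaling on the pan epithelial median, the medians for challenge were -0.017 in cells labelled Pla2g3-/- and -0.10 in wild-type cells. The cause was not tested. The swapped control array, the pan epithelial scalings and leaving out the regulators were chosen after seeing the data. Over all settings, the swapped control array included, the medians for challenge in cells labelled Pla2g3-/- ran from -0.024 to 0.28. They ran from -0.10 to 0.11 for challenge in wild-type cells. For genotype they ran from -0.14 to -0.07 with challenge and from -0.30 to -0.15 without. limma's count of members was 0 for each term under every setting in which it was fitted. No paired analysis was possible because each group has 1 array, and for the same reason no replicate could be left out. Dim probes close to background, such as those of Spag17, Dnah10 and Spag6, limit what can be read from them.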

Other observations

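Of the 39 motile cilia genes, 6 lie on chromosome 11 and the rest on other chromosomes, 16 in all. In intraflagellar transport genes, which carry cargo along motile and primary cilia alike, challenge gave medians of 0.08 and 0.03 in cells labelled Pla2g3-/- and wild-type cells, and -0.04 and -0.08 for genotype with and without challenge, over 29 genes.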
